A study of Mus musculus with 4 samples.

Results

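*Foxl2*, *Wnt4*, *Rspo1*, *Fst*, *Irx3*, *Irx5*, *Bmp2*, *Runx1*, *Lef1* and *Axin2* are the genes of the ovarian pathway and of pregranulosa cells, the supporting cells of the early ovary. They were looked up by symbol, and all 10 were found among the 40999 features of the files. All 10 also passed the filter on low counts, which kept 20114 features. RNA was taken from gonads of wild-type C57BL/6J mouse embryos at 4 ages, each a day apart from E11.5 to E14.5, and each library holds male and female gonads of that age, mixed before extraction. At E11.5 the whole genital ridge was used, with the mesonephros (the embryonic kidney beside the gonad), whereas from E12.5 on the gonad was cut free of it. Each age has 1 library, so no difference below could be tested against replicates. In such a mixture XX and XY cells cannot be told apart, and neither can fewer cells of a type from less RNA per cell.

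In the XX gonad, the supporting cells that do not follow the *Sry* and *Sox9* route become pregranulosa cells. Wnt4 binds frizzled receptors, and Rspo1 keeps those receptors on the surface through Lgr receptors, so that β-catenin enters the nucleus and acts with Lef1 and its Tcf relatives. *Axin2* is a direct target of this signal, and its protein helps to destroy β-catenin. Foxl2, a forkhead factor, and Runx1, a runt-domain factor, hold the granulosa fate, the Iroquois homeodomain factors Irx3 and Irx5 act in the contact between pregranulosa and germ cells, and Fst binds activin and related ligands. Bmp2 is a secreted ligand of the same superfamily.

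Sequence before a start site was at hand from RefSeq (GRCm38.p6) for 7 of the 10 genes, in 11 windows of 250 bases, and not for *Fst*, *Bmp2* or *Irx5*. The bases outside annotated exons are shown for a ligand, its enhancer, a nuclear partner of β-catenin and a target of the signal, the 4 steps of the Wnt route. They run 5′ to 3′ on the strand of the gene, which is the plus strand in each case, and capitals mark the core of the TCF/LEF motif, CTTTG or its complement CAAAG.
Wnt4, chr4:137277385-137277488, 104 bases, the last of them 147 bases before the start: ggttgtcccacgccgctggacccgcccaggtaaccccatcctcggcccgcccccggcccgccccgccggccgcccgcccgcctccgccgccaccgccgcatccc
Rspo1, chr4:124986180-124986399, 220 bases, the last of them 31 bases before the start: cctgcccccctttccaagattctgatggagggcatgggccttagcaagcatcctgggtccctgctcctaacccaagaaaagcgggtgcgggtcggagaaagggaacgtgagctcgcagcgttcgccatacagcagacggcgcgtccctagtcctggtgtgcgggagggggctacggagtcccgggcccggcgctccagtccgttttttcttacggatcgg
Axin2, chr11:108920099-108920348, 250 bases up to a start inside the span that the files give the gene: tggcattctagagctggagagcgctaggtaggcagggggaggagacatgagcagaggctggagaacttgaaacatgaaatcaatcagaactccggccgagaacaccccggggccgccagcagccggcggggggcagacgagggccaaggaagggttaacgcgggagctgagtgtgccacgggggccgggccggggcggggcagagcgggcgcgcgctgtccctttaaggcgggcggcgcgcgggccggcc
Lef1, chr3:131156044-131156293, 250 bases up to a start inside the gene: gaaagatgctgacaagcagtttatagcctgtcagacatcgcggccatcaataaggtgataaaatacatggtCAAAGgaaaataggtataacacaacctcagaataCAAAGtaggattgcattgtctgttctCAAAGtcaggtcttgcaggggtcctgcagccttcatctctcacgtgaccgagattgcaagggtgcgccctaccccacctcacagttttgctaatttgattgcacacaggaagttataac

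The whole windows of 250 bases, exon bases included, hold 44 CpG dinucleotides for *Wnt4*, 22 for *Rspo1*, 24 for *Axin2* and 5 for the *Lef1* start shown, beside a median of 6 in the 32851 mouse windows of that length. The core was found in all 4 windows of *Lef1* and in no window of the other 6 genes, and 48.6% of all windows hold it. Apart from the one shown, the *Lef1* windows lie wholly in annotated exons, as do those of *Irx3* and *Foxl2*. The internal *Lef1* window shown above holds 3 copies, each as CAAAG. Longer motifs of 7 letters were searched on both strands: CTTTGAT and CTTTGAA for TCF/LEF, both of which contain the core, GTAAACA for forkhead factors, TGTGGTT for RUNX and CAAGGTC for SF-1. None of the 5 was in any of the 11 windows, and each was in 3.17% to 4.46% of all windows. *Runx1* has a distal and a proximal start, with 2 and 27 CpG dinucleotides in their windows. Counts were made per gene, so starts of 1 gene were not separated.

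The libraries held 31266481, 25593453, 31752562 and 31526303 counts from E11.5 to E14.5. At E14.5 48.9% of counts fell on rRNA genes, against 17.7%, 8.90% and 8.72% in the earlier libraries. Levels are therefore given as CPM (counts scaled to a common library size) after TMM scaling over the 4 libraries (TMM CPM), which sets the bulk of genes equal, and per kb of exon where genes are compared. Brackets hold 95% intervals, which cover counting error only, and 3 counts were 0.159 TMM CPM or less. Genes of the gonadal ridge that both sexes use were present in every library, among them *Gata4* with 4026 to 11790 counts and *Wt1* with 3371 to 10724. A gene was counted as up- or down-regulated between 2 libraries where its level differed at least 2-fold, and "rose" and "fell" are kept for such genes.

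Between E11.5 and E12.5, 5 of the 10 genes rose and 0 fell. These were *Irx3*, *Fst*, *Foxl2*, *Bmp2* and *Irx5*. Age and removal of the mesonephros changed together at this step, so they cannot be told apart. Of all features tested, 9.69% rose and 9.60% fell in the same comparison, and the median log2 ratio was 0.88 over the 10 genes and -0.00185 over all features. Among features with at least 100 counts in both libraries, 3.901% rose and 2.98% fell. *Irx5* had the fewest counts of the 10, and its interval was the only one of the 5 that reached below 2-fold.

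Between E12.5 and E13.5, 0 of the 10 genes rose and 0 fell, beside 3.92% and 2.93% of all features. The log2 ratios of 9 genes lay above 0, between 0.23 for *Rspo1* and 0.81 for *Foxl2*, and *Lef1* stood at -0.22. Their median was 0.33, against 0.00424 over all features.

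From E13.5 to E14.5 the order turned. *Bmp2* fell, 0 of the 10 genes rose, and the median was -0.53, against -0.00905 over all features. Here 7.42% of all features rose and 3.61% fell. *Foxl2* had the highest ratio of the 10, at 0.67. These values depend on the scaling, since the E14.5 library is rich in rRNA. By total counts 9 of the 10 genes fell, as did 12038 of all 20114 features, and the median of all features lay at -1.07. Relative to that median the 10 genes had a median of -0.52, as with TMM.

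**Figure D1:**
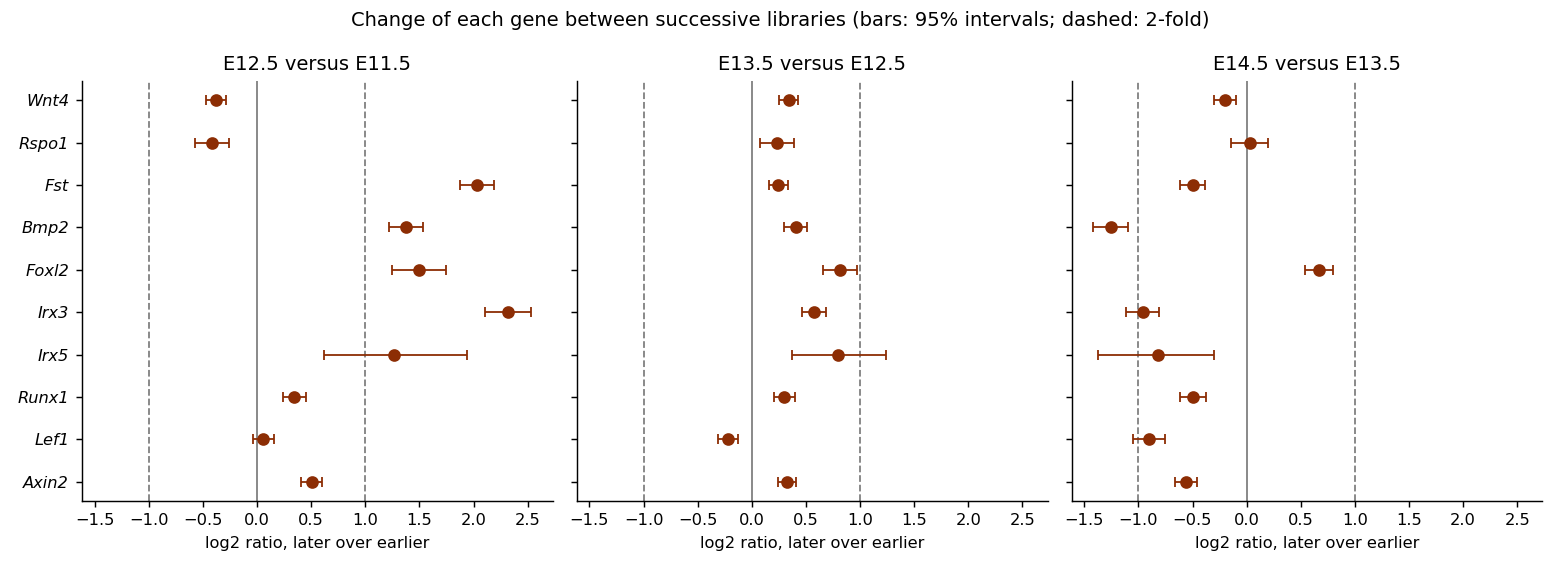
Log2 ratio of each of the 10 genes (rows) between successive libraries (panels), with 95% counting intervals as bars, 0 as a solid line and 2-fold as dashed lines. Points of *Irx3*, *Fst*, *Foxl2*, *Bmp2* and *Irx5* lie right of the 2-fold line at E12.5, none passes it at E13.5, and *Bmp2* lies left of it at E14.5. The positive value of *Foxl2* at E14.5 (0.67) becomes -0.39 by total counts and -0.95 by the deposited TPM.

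Across the days from E12.5 to E14.5, in gonads without mesonephros at either end, *Foxl2* rose and *Lef1* fell, beside 9.63% and 4.68% of all features. By total counts the *Foxl2* ratio of 1.48 became 0.44, short of 2-fold, and 7 of the 10 genes fell. So did 10937 of all 20114 features on that scale, whose median was -1.04. This comparison shares its libraries with the daily steps. The other 8 genes lay between -0.85 for *Bmp2* and 0.26 for *Rspo1* on the log2 scale.

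*Wnt4*, which encodes the ligand, lies at chr4:137277635-137299501 on the plus strand (mm10). It gave 2467, 1739, 2776 and 1152 counts from E11.5 to E14.5. In the same order its levels were 72.0 TMM CPM [69.2, 74.9], 55.4 [52.9, 58.1], 70.1 [67.6, 72.8] and 61.2 [57.7, 64.8]. The highest and lowest libraries were 1.30-fold apart, and the intervals of E11.5 and E13.5 overlapped, as did those of E14.5 and E12.5. By total counts its highest library was E13.5. *Wnt4* is also used in the embryonic kidney, and the summed level of 12 mesonephros genes went from 249.6 TMM CPM at E11.5 to 41.5 at E12.5, whose part in these values was not tested.

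*Rspo1*, which encodes the secreted enhancer of Wnt signalling, lies on the same chromosome at chr4:124986400-125009102. Its counts were 823, 564, 835 and 405. Levels of 24.0, 17.98, 21.1 and 21.5 TMM CPM put its extremes 1.34-fold apart, with overlapping intervals at E13.5 and E14.5. Both genes were lowest at E12.5, where *Wnt4* had a log2 ratio of -0.38 [-0.47, -0.29] to E11.5 and *Rspo1* one of -0.42 [-0.58, -0.26]. Within each library *Wnt4* exceeded *Rspo1* per kb by 1.46-, 1.51-, 1.62- and 1.39-fold, a ratio that does not depend on the scaling between libraries.

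*Fst*, which encodes the activin-binding protein follistatin, lies at chr13:114452262-114458986 on the minus strand. It gave 433, 1618, 2420 and 814 counts. Its levels were 12.6 TMM CPM [11.47, 13.9] in the first library, 51.6 [49.1, 54.1] in the second, 61.2 [58.7, 63.6] in the third and 43.2 [40.3, 46.3] in the last. No intervals overlapped. *Fst* rose 4.08-fold at E12.5, a log2 ratio of 2.03 [1.87, 2.19], and was 1.41-fold lower at E14.5 than at E13.5.

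*Bmp2*, at chr2:133552159-133562896 on the plus strand, gave 479, 1138, 1899 and 378 counts. Its levels were 13.98, 36.3, 48.0 and 20.1 TMM CPM. It rose 2.59-fold at E12.5, stood 1.32-fold higher again at E13.5, and fell 2.39-fold at E14.5, with a log2 ratio of -1.26 [-1.42, -1.10]. On this scale *Bmp2* was the sole member of the 10 to pass 2-fold in opposite directions at different steps. *Fst* and *Bmp2* were close per kb at E11.5, with a ratio of 1.11 [0.97, 1.27], and *Fst* was 1.75-, 1.57- and 2.65-fold above *Bmp2* in the later libraries.

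*Foxl2*, the forkhead gene of granulosa cells, has a single exon at chr9:98955607-98958126 on the plus strand. Its counts were 191, 493, 1092 and 826. Its levels were 5.57 TMM CPM [4.81, 6.42], 15.7 [14.4, 17.2], 27.6 [26.0, 29.3] and 43.9 [40.9, 47.0] with advancing age. No intervals overlapped, and each library stood above the one before it, with 7.87-fold between the first and the last. The steps were 2.82-fold, 1.76-fold and 1.59-fold. The last step holds with TMM, with DESeq2 size factors and with totals that leave out rRNA and the most abundant features (log2 ratio 0.63), but it is -0.39 by total counts and -0.95 by the deposited TPM, where the median of all features is -1.07 and -1.62. Ratios within a library are free of that choice: *Foxl2* was 0.51, 0.35, 0.52 and 1.17 times *Fst* per kb from E11.5 to E14.5.

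*Irx3* lies at chr8:91798511-91801654 on the minus strand. It gave 219, 999, 1873 and 458 counts, at levels of 6.39 TMM CPM [5.57, 7.30], 31.8 [29.9, 33.9], 47.3 [45.2, 49.5] and 24.3 [22.2, 26.7]. Its rise at E12.5, 4.98-fold, was the highest of the 10 genes, with a log2 ratio of 2.32 [2.10, 2.53]. At E14.5 it stood 1.95-fold below E13.5, just short of 2-fold, and with totals that leave out rRNA and the most abundant features it passed that line at -1.002.

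*Irx5* lies further along the same chromosome, at chr8:92357796-92361456 on the plus strand. It gave only 30, 66, 145 and 39 counts, at levels of 0.875, 2.10, 3.66 and 2.07 TMM CPM. It rose 2.397-fold at E12.5, with a log2 ratio of 1.26 [0.62, 1.94]. The E12.5 and E14.5 intervals overlapped, so at this depth those 2 libraries were not distinguishable. *Irx3* exceeded *Irx5* per kb in every library, by 7.42-fold [5.05, 11.3] at E11.5 and by 15.4-, 13.1- and 11.9-fold after that.

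*Runx1*, the runt-domain gene, spans chr16:92601466-92826066 on the minus strand. It gave 1309, 1522, 2365 and 799 counts and levels of 38.2, 48.5, 59.8 and 42.4 TMM CPM. Its extremes were 1.56-fold apart, with the highest level at E13.5, and the intervals of E11.5 and E14.5 overlapped. It passed 2-fold in none of the 4 comparisons.

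*Lef1*, the partner of β-catenin, spans chr3:131110262-131224357 on the plus strand. Its counts of 1809, 1726, 1871 and 477 gave levels of 52.8 TMM CPM [50.4, 55.3], 55.0 [52.4, 57.7], 47.3 [45.2, 49.5] and 25.3 [23.1, 27.7]. The intervals of the first and second libraries overlapped, and the last stood below all others. *Lef1* was 1.87-fold lower at E14.5 than at E13.5 and fell 2.17-fold from E12.5, with a log2 ratio of -1.12 [-1.27, -0.97] whose interval reached just inside 2-fold. On the TMM scale it was the only one of the 10 genes with its lowest level at E14.5, whereas by total counts *Wnt4*, *Rspo1*, *Bmp2*, *Runx1* and *Axin2* were lowest there as well.

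*Axin2*, the feedback gene and readout of Wnt signalling, spans chr11:108917828-108950783 on the plus strand. Counts of 1558, 2022, 3196 and 1034 gave 45.5, 64.4, 80.8 and 54.9 TMM CPM, so on this scale, like *Runx1*, it had its lowest level at E11.5 and its highest at E13.5, with extremes 1.78-fold apart. The 2 genes were 0.070 apart in course, as the root mean square distance of centred log2 levels. Its ratio to *Lef1* changed from day to day. Per kb *Axin2* was 0.80 times *Lef1* at E11.5 and 1.09, 1.58 and 2.01 times *Lef1* in the later libraries, and these 4 intervals did not overlap.

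**Figure D2:**
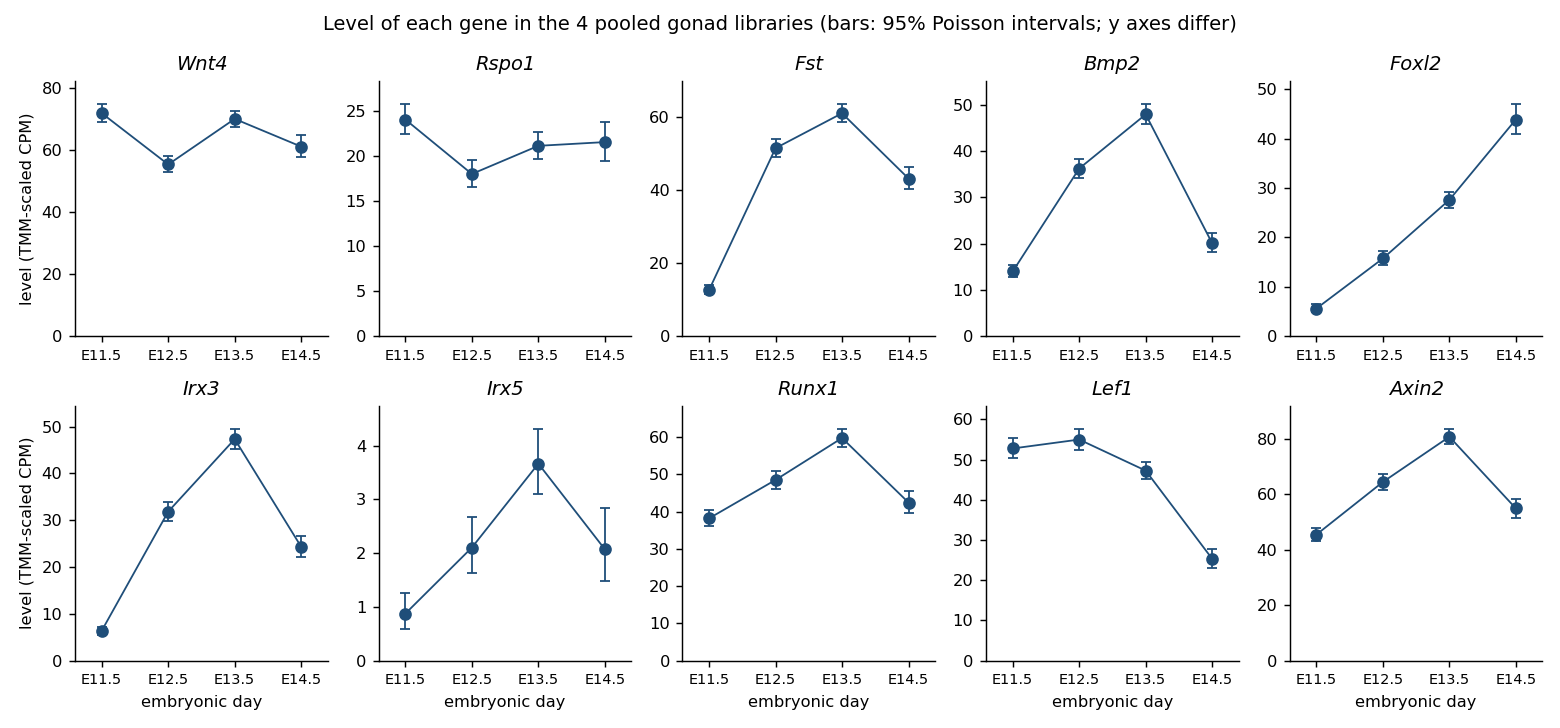
Level of each gene (TMM-scaled CPM, y axes from 0 and different in each panel) in the 4 libraries by embryonic day, with 95% Poisson intervals as bars. *Fst*, *Bmp2*, *Irx3*, *Irx5*, *Runx1* and *Axin2* peak at E13.5, *Wnt4* and *Rspo1* stay within 1.34-fold, *Lef1* is lowest at E14.5, and *Foxl2* is highest there on this scale, though not by total counts or deposited TPM, where its E14.5 value lies below E13.5.

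The order of the genes, per kb of exon, changed over the 4 ages. At E11.5 *Wnt4* stood first with 18.8 TMM CPM per kb, followed by *Rspo1* with 12.9, *Lef1* with 10.9 and *Axin2* with 8.73. *Runx1* had 5.11, *Fst* and *Bmp2* did not differ beyond their intervals at 4.36 and 3.92, and neither did *Irx3* and *Foxl2* at 2.70 and 2.21. The Wnt genes thus led in this library, which held mesonephros too. At E12.5 *Fst* was first with 17.8, and *Wnt4*, *Irx3*, *Axin2* and *Lef1* followed down to 11.4, each overlapping its neighbour. *Fst* (21.1) and *Irx3* (20.03) shared the top at E13.5. At E14.5 *Foxl2* (17.4), *Wnt4* (16.0) and *Fst* (14.9) headed the order, with overlapping intervals between neighbours, while *Runx1*, *Bmp2* and *Lef1* lay together between 5.68 and 5.25. *Foxl2* was ninth at E11.5 and E12.5 and seventh at E13.5. *Irx5* was last in each library, at 0.364 to 1.52.

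**Figure D3:**
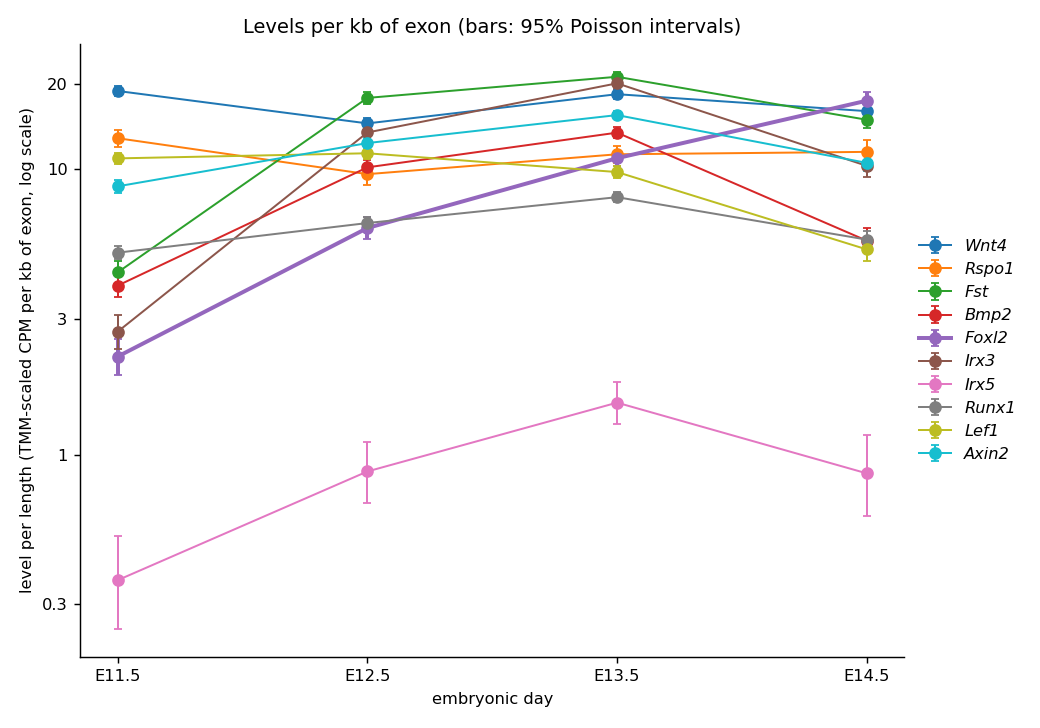
Level per kb of exon (TMM-scaled CPM per kb, log axis) of the 10 genes in the 4 libraries by embryonic day, with 95% Poisson intervals as bars and *Foxl2* as the thick line. *Foxl2* goes from ninth at E11.5 (2.21) to the top group at E14.5 (17.4), where *Wnt4* stands at 16.0, and *Irx5* lies below all others. The order within a library does not depend on the scaling between libraries, whereas the slope of *Foxl2* from E13.5 to E14.5 turns down by total counts and by deposited TPM.

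The transcription factor genes *Foxl2*, *Irx3* and *Irx5* each have a neighbour on the opposite strand within 10 kb. *Lef1* has such neighbours too, described at the end, and those of *Runx1* had 3 counts or fewer in every library. *Foxl2os* (chr9:98949155-98955310) starts 296 bases from *Foxl2* in the annotation of the files, runs away from it, and gave 18, 100, 275 and 104 counts. It rose at E12.5, with a log2 ratio of 2.59 [1.87, 3.41], and again at E13.5, with 1.12 [0.79, 1.47]. At E14.5 its ratio was -0.33 [-0.67, -0.00042] while that of *Foxl2* was 0.67. Per kb, *Foxl2os* was 0.064, 0.137, 0.170 and 0.085 times *Foxl2* within the libraries, and the intervals of E13.5 [0.148, 0.194] and E14.5 [0.069, 0.104] did not overlap.

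*Irx3os* (chr8:91802242-91873722) starts 587 bases from *Irx3* and gave 24, 129, 290 and 60 counts. It rose at E12.5, with 2.55 [1.92, 3.25], and fell at E14.5, with -1.20 [-1.63, -0.80]. Its ratio to *Irx3* per kb was 0.043, 0.051, 0.061 and 0.052, with overlapping intervals between each library and the next. Beside *Irx5*, at a distance of 1675 bases, *4933436C20Rik* gave 34, 52, 82 and 27 counts and passed 2-fold in none of the 4 comparisons. The spans do not overlap in the annotation of the files, but in GENCODE M21 *Foxl2* starts at 98955288, inside *Foxl2os*, and an exon of *Irx3os* lies within an exon of *Irx3*. If the strand was not used in counting, reads in such stretches could belong to either gene of a pair.

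**Figure D4:**
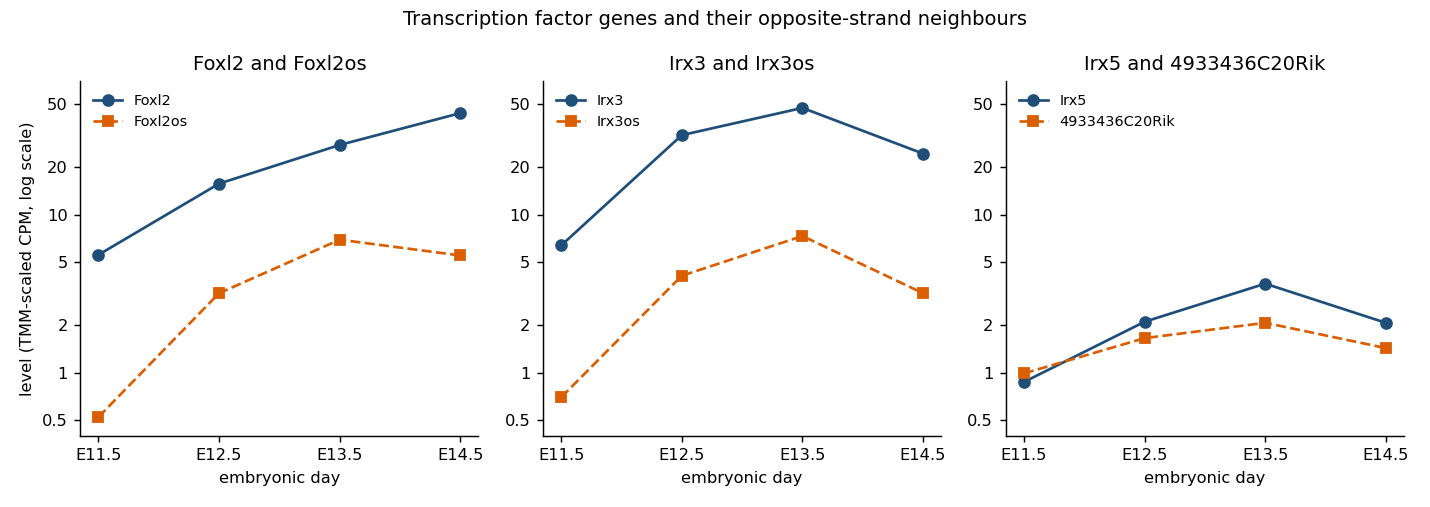
Level (TMM-scaled CPM, log axis) of *Foxl2*, *Irx3* and *Irx5* (circles) and of the neighbour on the opposite strand (squares) in the 4 libraries by embryonic day, without error bars. *Irx3os* runs parallel to *Irx3*, and *Foxl2os* goes from 6.95 at E13.5 to 5.52 at E14.5 while *Foxl2* goes from 27.6 to 43.9. Both *Foxl2* and *Foxl2os* stand lower at E14.5 than at E13.5 by total counts and by deposited TPM.

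The features closest to each gene in their course over the 4 libraries were found by the root mean square distance of log2 levels, each centred on its own mean, among 14069 features with at least 100 counts in their highest library. Closest to *Foxl2* was *Scarb1*, the receptor for high-density lipoprotein, at 0.093, with 926, 2368, 5265 and 3432 counts, followed by *Col6a4* and *5430435G22Rik*. Only 29 features lay within 0.2 of *Foxl2*, and the numbers were 7 for *Irx3*, 16 for *Bmp2*, 18 for *Irx5* and 48 for *Fst*. Closest to *Fst* were *Ephb1*, *Fam196b* and *Dcaf12l1*. *Bmp2* was matched by *Agpat9*, *Dusp5* and *6330403A02Rik*, *Irx3* by *Zcchc16*, *Nr4a3* and *LOC102635707*, and *Irx5* by *Isx*, *Ryr2* and *Gpld1*. Among the 10 genes themselves, *Irx3* and *Fst* were close, at 0.226, which made *Fst* the ninth nearest feature to *Irx3*.

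The flatter genes had many features like them. Within 0.2 lay 5707 features for *Wnt4*, 5694 for *Rspo1*, 2328 for *Runx1* and 981 for *Axin2*, so their closest matches (*Dll1*, *Pisd-ps1* and *2310015A10Rik* for *Wnt4*, *Mkrn3*, *Evc* and *Myo6* for *Rspo1*, *Gxylt2*, *Pde4a* and *Klhl5* for *Runx1*, *Homer1*, *Hells* and *LOC102635323* for *Axin2*) stand among many. *Lef1* had 100, led by *Grrp1*, *Podxl* (12256, 11452, 12196 and 3494 counts) and *Chrm4*. These distances rest on 4 libraries and describe likeness only.

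Of 35 genes for secretion, reception and transduction of Wnt signals, 2 rose and 4 fell at E12.5, with a median of -0.066. These counts are near the shares over all features at this step, 9.69% and 9.60%. Those that rose were *Fzd9*, a frizzled receptor, at 2.72, and *Lgr5*, an R-spondin receptor of early ovarian supporting cells, from 268 to 978 counts (1.99). The frizzled genes *Fzd2* (-1.22), *Fzd7* (-1.12) and *Fzd1* (-1.06) fell. At E13.5 *Fzd9* alone of the 35 passed 2-fold, falling by 1.28, and at E14.5 *Porcn*, whose product adds the lipid that Wnt proteins need for secretion, alone did so, at -1.35. Over all features 2.93% fell at E13.5 and 3.61% at E14.5, so 1 of 35 is near those shares.

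Of 23 tested Wnt targets, inhibitors and R-spondins, 2 rose and 8 fell at E12.5, beside 9.69% and 9.60% of all features. Their median was -0.70, and 1 of the 8 went from 8 to 0 counts. *Sp5*, a direct Wnt target, rose at 1.64, where *Axin2* stood at 0.50, and *Sfrp4* rose from 11 to 180 counts. The inhibitor genes *Sfrp2* (-3.33) and *Dkk2* (-2.13) and the R-spondin gene *Rspo3* (-2.54) fell, whereas *Rspo1* stood at -0.42. At E13.5 2 of these genes rose, beside 3.92% of all features: *Msx2* (1.11) and 1 gene that went from 0 to 3 counts. At E14.5 3 rose and 1 fell, beside 7.42% and 3.61% of all features. None of the 3 held more than 46 counts in either library. The inhibitor gene *Dkk1* was the one that fell, at -1.01 [-1.52, -0.53].

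In the activin and BMP route, 3 of 29 genes rose and 4 fell at E12.5, with a median of -0.17, and the counts are again near the 9.69% and 9.60% of all features. The inhibin and activin subunit genes rose together with the activin antagonist *Fst*: *Inhba* at 2.73, *Inha* at 1.91 and *Inhbb* at 1.60. In this mixture of male and female gonads their rise cannot be assigned to an ovarian or testicular cell. *Inhbb* is also counted among the Sertoli cell genes below. *Inhba* went from 38 to 231, 796 and 734 counts, rose again at E13.5 (1.45), and like *Foxl2* was highest at E14.5 on the TMM scale (39.0 TMM CPM), but not by total counts. *Bmp4*, a ligand related to *Bmp2*, fell at E12.5 from 892 to 168 counts (-2.28), as did the receptor gene *Bmpr1b* (-1.49) and *Smad9* (-1.07). At E14.5 0 of the 29 genes rose and 1 fell, near the 3.61% of all features that fell at this step. It was *Id1*, a target of BMP signalling, which went from 2337 to 473 counts, at -1.23 [-1.38, -1.09]. A link to the fall of *Bmp2* was not tested.

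Of 11 other Iroquois, RUNX and FOXO genes and RUNX partners, relatives of the transcription factors, 0 rose and 3 fell at E12.5, beside 9.69% and 9.60% of all features, with a median of -0.086. *Runx2* went from 190 to 63 counts (-1.46), while *Runx1* stood at 0.34. At E13.5 0 of the 11 passed 2-fold. At E14.5 1 fell, beside 3.61% of all features, and it went from 12 to 2 counts with an interval of [-4.71, 0.65].

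Of 15 tested genes of other supporting-cell lists of the ovary, 8 rose and 0 fell at E12.5, beside 9.69% and 9.60% of all features. Their median was 1.15. The 8 include *Gata4* and *Nr5a1*, and *Fshr* at 0 and then 12 counts. Where the higher library held 100 counts or more, *Gng13* (3.34), *Lgr5* and the nuclear receptor gene *Nr5a2* (1.66) had the highest ratios. At E13.5 *Hsd17b7*, an enzyme of steroid and cholesterol synthesis, rose (1.02), beside 3.92% of all features. At E14.5 1 of the 15 genes rose, *Fshr* with 29 and then 34 counts, beside 7.42% of all features. Several of these genes are used in both sexes before and after sex determination, among them *Gata4*, *Nr5a1* and *Wt1*. *Cyp19a1*, the aromatase of mature granulosa cells, had 4 counts or fewer in every library, and *Fshr* was at 0 at E11.5.

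Markers of other tissues moved at the same steps, and their part in the changes of the 10 genes was not tested. Between E11.5 and E12.5 age and dissection changed together and cannot be told apart. At that step 9.69% of all features rose and 9.60% fell. At E12.5, 10 of 12 mesonephros genes fell, with a summed level of 249.6 TMM CPM at E11.5 and 36.9 to 43.4 later, and none was at 0 in any library. Sertoli cell genes, which mark the testis, rose in 13 of 16 cases, from a sum of 220.0 to between 940.8 and 1077, and *Sry* fell and was at 0 at E14.5. Germ cell genes rose in 8 of 10 cases, from 68.5 to between 372 and 469, with *Stra8* at 0 at E11.5. All 6 Leydig cell genes rose, from 13.3 to 170.7, and *Insl3* was at 0 at E11.5. Macrophage genes fell in 9 of 10 cases, from 84.4 to between 33.8 and 54.9, and genes of sympathetic neurons and glia in 5 of 7, from 61.3 to between 24.1 and 24.9, with none at 0. The 10 genes together had a sum of 271.9, 378.9, 466.8 and 339.0 TMM CPM.

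Sertoli genes had medians of -0.099 and 0.15 in the later steps, where the other supporting-cell genes of the ovary had 0.010 and -0.26 and the 10 ovarian genes had 0.33 and -0.53. These differences between lists were not tested. Over all features 9.69% rose and 9.60% fell at E12.5, 3.92% and 2.93% at E13.5, and 7.42% and 3.61% at E14.5. Leydig genes rose again at E13.5 in 6 of 6 cases and had a median of 0.71 at E14.5, with sums of 700.2 and 1153. In the stromal list 2 of 6 genes rose at E14.5, *Dcn* (1.30) and *Col1a1* (1.05), and the sum went from 1485 to 2429. In the erythroid list 1 rose and 2 fell at E12.5, 2 rose and 3 fell at E13.5, 3 fell a day later, and the sums were 1714, 2375, 1511 and 1008. Endothelial genes had sums of 505.4 down to 329.1 and none of 10 passed 2-fold at any step, and none of 12 housekeeping genes did. No erythroid, endothelial or stromal marker was at 0. By total counts, where ratios at E14.5 are lower by about the median given above, *Col1a1* and the Leydig median turn negative.

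**Figure D5:**
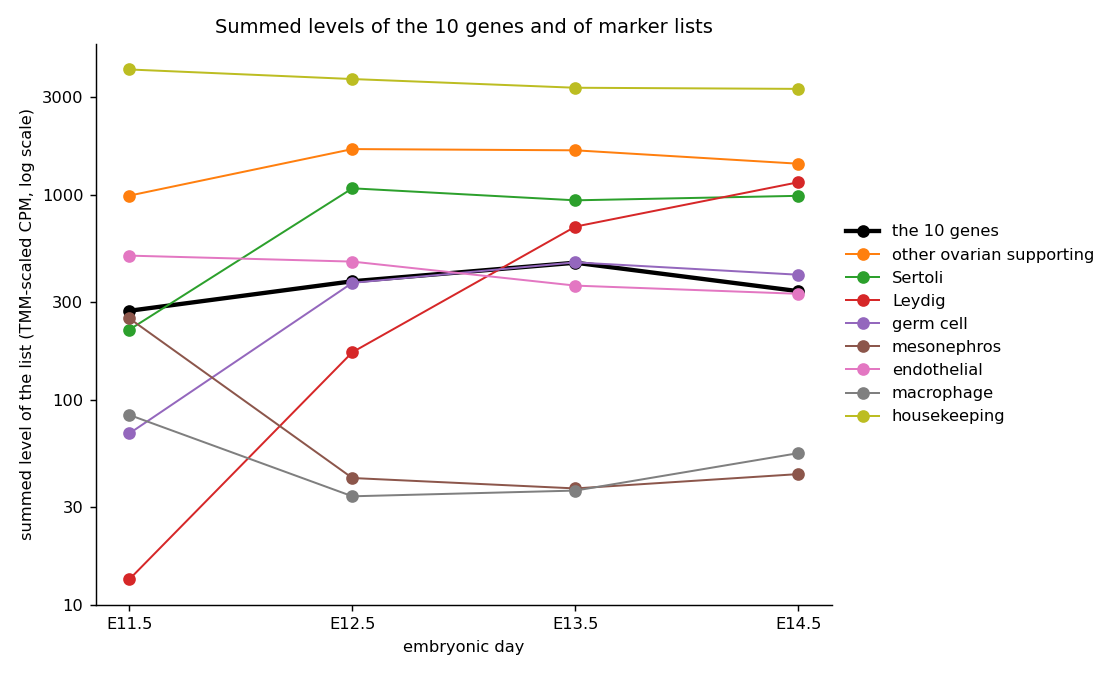
Summed level (TMM-scaled CPM, log axis) of the 10 genes (thick black line) and of 8 marker lists in the 4 libraries by embryonic day, 1 library per point. Mesonephros and macrophage sums drop between E11.5 and E12.5, Sertoli, germ cell and Leydig sums climb there, and the sum of the 10 genes goes from 271.9 to 466.8 at E13.5 and 339.0 at E14.5.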

How the data were processed

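Pooled gonad RNA of 4 ages was measured by stranded total RNA sequencing after removal of rRNA with probes and RNase H. The authors aligned reads with STAR to mm10, removed duplicates by UMI, counted reads per gene with featureCounts and deposited these counts with TPM made from them. Tool versions, the annotation release and the strand setting are not given in the sources used here. RPKM columns were not used.

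Counts were scaled by TMM over the 4 libraries (edgeR 4.0.16, R 4.3.3) and features were kept by filterByExpr. With 1 library per age no test was made: log2 ratios (later over earlier, prior count 0.125) carry exact Clopper-Pearson 95% intervals, levels carry exact Poisson intervals, and a feature was called at a log2 ratio of at least 1 in size. UMIs remove PCR copies, but intervals cover counting error only. The ratios were tested on simulated data. Alternatives were DESeq2 1.42.0 size factors, total counts, other filters and priors, TPM ratios and edgeR's exact test at preset dispersions. Intervals used scipy 1.17.1 and tables pandas 2.3.3 (Python 3.11.15).

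The genes and 15 lists were chosen with earlier results of these data known, and the motifs after seeing the data. *Inhbb*, *Lgr5* and *Msx1* are shared between lists. Named genes are the 10 genes, listed genes past 2-fold whose higher library held 100 counts or more (up to 3 per list and direction), features within 10 kb and the 3 most similar features. *Gata4*, *Wt1*, *Nr5a1*, *Cyp19a1* and the markers at 0 are exceptions, picked with their values in view. Counts of 3 or fewer were flagged but not raised to a floor. They entered the ratios as they stood, with the prior count, and so entered the numbers of genes past 2-fold.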

Additional observations from a re-analysis of the deposited data

How the results depend on the processing

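With 1 library per age, no change has a replicate check, and no library could be left out. No paired analysis was possible because each age has 1 library. The signs of all 10 genes held at E12.5 and E13.5 under every scaling. At E14.5 against E13.5, *Rspo1* and *Foxl2* changed sign by total counts and by the deposited TPM, and *Rspo1* also with totals without rRNA and the 10 most abundant features. At E14.5 against E12.5, *Wnt4* and *Rspo1* changed sign by total counts and by TPM, and *Foxl2* went from 1.48 to -0.0077 by TPM. By total counts and by TPM the median of all features lay at -1.07 and -1.62 against E13.5, and at -1.04 and -1.48 against E12.5.

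Of the 10 genes, 9 passed 2-fold at E14.5 against E13.5 by total counts and 9 by TPM, and 2 with totals without rRNA (*Bmp2* and *Irx3*). All of them were lower at E14.5, as were 12038, 17518 and 764 of the 20114 features. Against E12.5 the numbers by total counts and by TPM were 7 and 9, all lower, beside 10937 and 16134 features. Calls of edgeR's exact test, here and over all features, were counted only for genes that also passed 2-fold. The test could thus only remove genes from the 2-fold calls. At a preset biological coefficient of variation of 0.4, where the spread is assumed and not measured, edgeR's exact test called 0 of the 10 in every comparison, at 0.2 it called 4, 0, 0 and 1, and at 0.1 it called 5, 0, 1 and 2, the same numbers as the 2-fold rule.

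Over all features, 3880, 1378 and 2219 passed 2-fold in the 3 daily steps and 2878 did at E14.5 against E12.5. Without a filter the numbers were 10245, 7498, 8720 and 9173, and with at least 10 counts in both libraries 2254, 517, 1128 and 1480. By total counts E14.5 gave 12457 against E13.5 and 11531 against E12.5, of which 3.36% and 5.15% were higher at E14.5 in place of 67.2% and 67.3%, and TPM gave 17737 and 16480 (1.23% and 2.10%). TPM also put 65.8% and 68.1% of the calls of the first and second step on the higher side, in place of 50.2% and 57.2%. The exact test called 1824 and 283 at E12.5 for a coefficient of 0.2 and 0.4. For 0.1 it called 1409 higher and 1384 lower there. At 0.1, 0.2 and 0.4 it called 366, 51 and 1 at E13.5, then 940, 485 and 31 a day later, and 1504, 800 and 71 at E14.5 against E12.5.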

Other observations

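Near *Lef1* lies *LOC102640569*, on the opposite strand 1989 bases before it, with 34, 14, 20 and 35 counts. Its course was opposite to that of *Lef1* at E14.5: the log2 ratio to E13.5 was 1.87 [1.05, 2.75], against -0.90 for *Lef1*. At these counts the intervals are wide, and at E12.5 its ratio was -1.15 [-2.17, -0.22]. On the other side of *Lef1*, *Hadh*, which encodes a dehydrogenase of fatty acid oxidation, stood at 61.9, 77.1, 77.0 and 75.2 TMM CPM and passed 2-fold in none of the comparisons. Apart from these and the neighbours of *Foxl2*, *Irx3* and *Irx5* described above, no feature within 10 kb of the 10 genes had more than 4 counts in any library.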
